A study of Mus musculus with 6 samples.

Results

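The genes described here encode neuronal RNA-binding proteins: the Elavl family (Elavl1, Elavl2, Elavl3 and Elavl4), the Rbfox family (Rbfox1, Rbfox2 and Rbfox3), the Nova family (Nova1 and Nova2) and Celf4. They were chosen by name, and each was read from the entry of its symbol with the highest FPKM. All 10 were found among the 41945 entries of the gene table, of which 37261 carry a gene symbol. FPKM is a level normalised to the length of the transcript and to the number of mapped fragments, so levels can be set side by side between genes.

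RNA was sequenced from motor neurons (MNs) that had been differentiated from mouse embryonic stem cells (mESCs) and sorted by FACS, to compare MNs with and without functional mouse Smn. There were 3 samples of each genotype, 6 in all, and the labels do not say whether they were separate cultures. The table gives 1 FPKM value per genotype, so the values used here give no replicate check of any difference, and it does not list the reads behind a value. The Hb9 control line is labelled wildtype and is SMN2+/+;mSmn+/+ by the methods, and the A2 SMA line is SMN2+/+;mSmn-/-. Both are on the FVB/N background, and both carry the human SMN2 transgene and an eGFP reporter under the Hb9 promoter. Embryoid bodies of either line were given 1 µM retinoic acid and 1 µM Smoothened agonist for 5 days, and GFP-positive cells that excluded propidium iodide were collected. The sorted cells of the lines are called Hb9 and A2 MNs below, a name that rests on the reporter used for the sort. In the A2 cells, MN markers such as Chat (0.344 FPKM) and Isl1 (5.95 FPKM) were low, though Mnx1 (44.2 FPKM) was not. Pou5f1, a marker of pluripotent cells, was at 775 FPKM there. Statements on A2 MNs thus describe the sorted sample. Each genotype is 1 mESC line, so line and genotype cannot be told apart.

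Neurons process and stabilise their transcripts in part with RNA-binding proteins that most other cells lack. Elavl (Hu) proteins bind U-rich and AU-rich stretches and mostly stabilise or promote the translation of the bound transcripts, whereas Rbfox and Nova proteins bind near alternative exons and set whether these are included. Elavl2, Elavl3, Elavl4 and Rbfox3 (NeuN) are widely used to mark neurons as they leave the cell cycle, while Elavl1 and Rbfox2 are made in many cell types.

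Smn1, the gene disrupted in the A2 line, was at 137 FPKM in Hb9 MNs and 5.26 FPKM in A2 MNs. This 25.9-fold lower level (log2 ratio -4.70) goes with the label of the line. All genes are here the 14926 entries that carry a symbol, reach 1 FPKM in Hb9 or A2 MNs and are above 0 in both. Over these, the median log2 ratio of A2 SMA over Hb9 control was -0.29 (quartiles -0.89 and 0.19). The typical gene was therefore listed somewhat lower in A2 MNs, and ratios relative to this median gene are given where they alter a direction.

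All 10 genes were lower in A2 MNs (9 relative to the median gene, with Elavl1 higher), as were 65.9% of all genes as deposited, and 8 of them were at least 2-fold lower, whereas 22.4% of all genes were. None was at least 2-fold higher, against 6.83% of all genes, and 7 were at least 4-fold lower, against 8.88%. Relative to the median gene, the count at least 2-fold lower was again 8, beside 16.5% of all genes, and none was at least 2-fold higher, beside 10.4%. Among all genes, 3343 were at least 2-fold lower and 1020 at least 2-fold higher, and relative to the median gene these counts were 2461 and 1558. The median log2 ratio of the 10 genes was -3.36, and -3.07 relative to the median gene. In these bulk samples, fewer cells of a type and less RNA per cell cannot be told apart. All 10 reached 1 FPKM in Hb9 MNs and 8 did so in A2 MNs, so Rbfox1 and Rbfox3 entered through their Hb9 value alone.

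**Figure D1:**
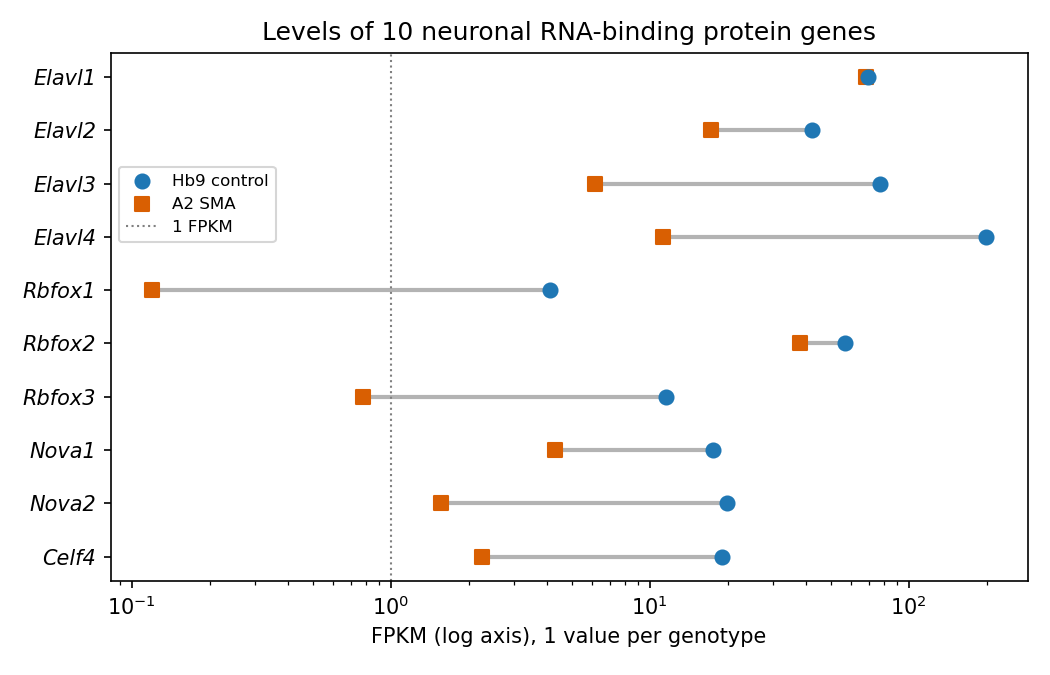
FPKM of the 10 genes on a log axis, with 1 value per genotype (circles, Hb9 control; squares, A2 SMA) joined by a grey line; the dotted line marks 1 FPKM. The symbols of Elavl1 overlap, at 69.6 and 68.1 FPKM (its order turns relative to the median gene), while those of Rbfox1 lie farthest apart, at 4.11 and 0.120 FPKM.

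Within the Elavl family, the neuronal members differed from Elavl1. Elavl4 (HuD), which binds transcripts of growing axons, was the most abundant of the 10 genes in Hb9 MNs. It was at 199 FPKM in Hb9 MNs and 11.3 FPKM in A2 MNs. Its level was 17.6-fold lower in A2 MNs (log2 ratio -4.14), and 221 of the 14926 genes had a lower ratio. In Hb9 MNs its level exceeded that of 97.3% of these genes, and in A2 MNs that of 47.2%. The gene lies on chromosome 4 from 109876327 to 110024514 of the mouse build NCBI m37, which holds for all positions of genes given here.

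Elavl3 (HuC), an early marker of newly born neurons, lies on chromosome 9 from 21819449 to 21856482. Its level was 77.4 FPKM in Hb9 MNs and 6.17 FPKM in A2 MNs. That is a 12.6-fold lower level (log2 ratio -3.65), close to the difference of Elavl4. Elavl2 (HuB), which is also made in germ cells, was at 42.2 FPKM in Hb9 MNs and 17.2 FPKM in A2 MNs, 2.45-fold lower (log2 ratio -1.29). Relative to the median gene it was barely past the 2-fold limit. Elavl2 was thus the neuronal member with the smallest difference of the family, and it exceeded Elavl3 in A2 MNs but not in Hb9 MNs.

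Elavl1 (HuR), the member made in most cell types, was at 69.6 FPKM in Hb9 MNs and 68.1 FPKM in A2 MNs. The log2 ratio was -0.03 as deposited, and it was 0.26 relative to the median gene, 0.26 when scaled to the upper quartile and 0.11 when scaled to Gusb, Pgk1 and Rpl13a. Its direction thus depends on the scaling, and its level was close in the 2 genotypes under each of them. The composition of the family differed accordingly. Elavl4 made up 51.2% of the summed FPKM of the 4 genes in Hb9 MNs and 11.0% in A2 MNs, whereas Elavl1 made up 17.9% and 66.3%. The sum was 388 FPKM in Hb9 MNs and 103 FPKM in A2 MNs, and without Elavl1 it was 318 and 34.7 FPKM, 9.17-fold lower. Most Elavl transcripts thus came from neuronal members in Hb9 MNs and from the broadly expressed member in A2 MNs.

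The Rbfox family showed a like split between a broadly expressed member and neuronal members. Rbfox2, which controls exons in stem cells, muscle and many epithelia as well as in neurons, was at 56.9 FPKM in Hb9 MNs and 37.9 FPKM in A2 MNs. The level was just under 1.5-fold lower in A2 MNs (log2 ratio -0.58, and -0.29 relative to the median gene). It was under the 2-fold limit and the second smallest difference of the 10 genes after Elavl1. Rbfox2 lies on chromosome 15 from 76909419 to 77137483.

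Rbfox3, whose protein is the neuronal nuclear antigen NeuN, was at 11.5 FPKM in Hb9 MNs and 0.784 FPKM in A2 MNs, 14.7-fold lower (log2 ratio -3.88). Rbfox1, a splicing regulator of neurons, heart and skeletal muscle, was the least abundant of the 10 genes in both genotypes. It was at 4.11 FPKM in Hb9 MNs and 0.120 FPKM in A2 MNs, 34.2-fold lower. Its log2 ratio of -5.10 was the lowest of the 10 as deposited, but not with 1 FPKM added, and 70 of the 14926 genes had a lower one. A ratio against so low a level depends on how low values are treated, and with 1 FPKM added to both values the log2 ratio was -2.19 for Rbfox1 and -2.81 for Rbfox3.

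The Rbfox genes summed to 72.6 FPKM in Hb9 MNs and 38.8 FPKM in A2 MNs. Rbfox2 made up 78.4% of this sum in Hb9 MNs and 97.7% in A2 MNs, so that nearly all Rbfox transcripts in A2 MNs were Rbfox2. Rbfox1 and Rbfox3 together were at 15.7 and 0.904 FPKM.

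Both Nova genes, whose proteins were first known as targets of autoantibodies in a paraneoplastic motor disorder, were lower in A2 MNs. Nova1, which is prominent in hindbrain and spinal cord, lies on chromosome 12 from 47795504 to 47919773. It was at 17.6 FPKM in Hb9 MNs and 4.30 FPKM in A2 MNs, a 4.09-fold lower level (log2 ratio -2.03). Nova2, which is the main Nova protein of the cortex, was at 19.8 FPKM in Hb9 MNs and 1.57 FPKM in A2 MNs, 12.7-fold lower (log2 ratio -3.66). The 2 genes had similar levels in Hb9 MNs, where Nova2 made up 53.0% of their sum. In A2 MNs Nova2 made up 26.7%, so Nova1 was the more abundant of the pair there. The sum was 37.4 FPKM in Hb9 MNs and 5.87 FPKM in A2 MNs.

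Celf4, which binds transcripts of synaptic proteins in excitatory neurons and influences their stability and translation, was at 19.0 FPKM in Hb9 MNs and 2.25 FPKM in A2 MNs. It was 8.42-fold lower in A2 MNs (log2 ratio -3.07), between the Nova genes in size of difference. The order of the 10 genes thus differed between the genotypes. Elavl4, Elavl3, Elavl1 and Rbfox2 led in Hb9 MNs, and Elavl1, Rbfox2, Elavl2 and Elavl4 led in A2 MNs.

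**Figure D2:**
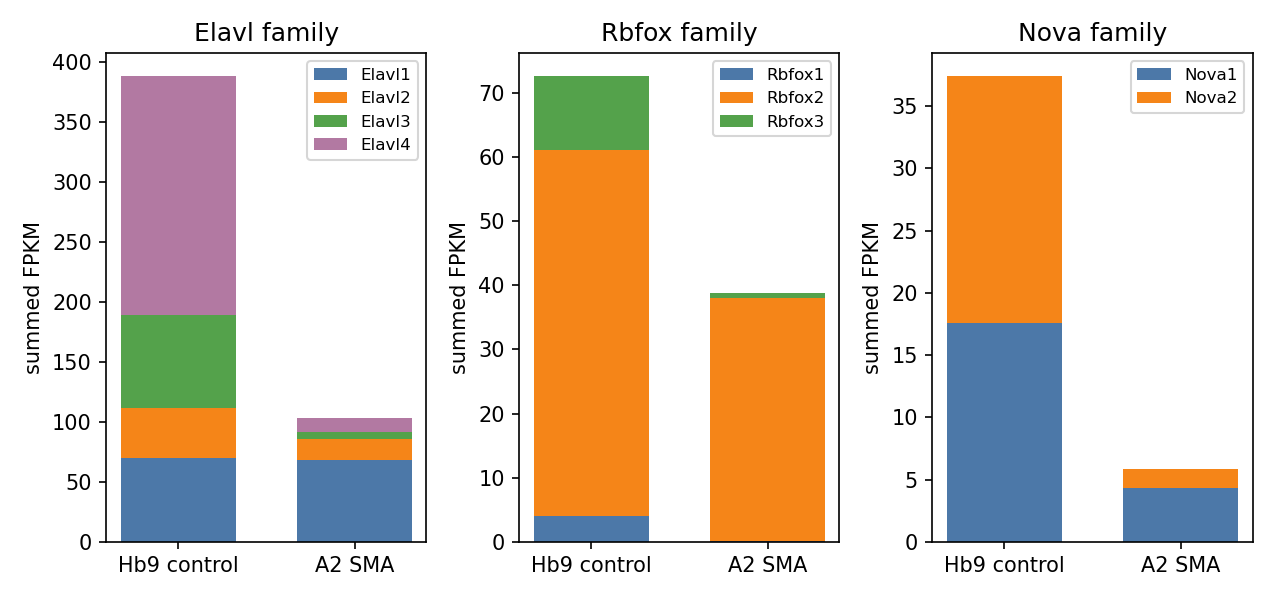
Summed FPKM of each family in Hb9 control and A2 MNs, stacked by gene, with 1 value per genotype and a vertical axis that starts at 0 and differs between panels. Elavl1 and Rbfox2 make up most of the A2 SMA bars, 66.3% and 97.7%, and Elavl4 makes up 51.2% of the Hb9 control bar of its family.

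Some of these loci hold further entries, and the library kit does not mark strand, so reads of overlapping genes on opposite strands cannot be told apart. The entries named in this paragraph were chosen after their values were seen. At the locus of Nova2, on chromosome 7 from 19510698 to 19551031, the entry Gm17370 was at 17.5 FPKM in Hb9 MNs and 0.943 FPKM in A2 MNs. This entry was somewhat below Nova2 in Hb9 MNs and further below it in A2 MNs, and how reads were divided between them was not tested. A second Elavl2 entry at its locus was at 2.88 FPKM in Hb9 MNs and 0.282 FPKM in A2 MNs, and Gm12653, at the same locus, was at 2.17 and 2.40 FPKM. The entry 1700109K24Rik at the locus of Rbfox2 was under 1 FPKM in both genotypes. Elavl1, Elavl3 and Rbfox2 have the Cuffdiff status FAIL, which marks an entry whose test met a numerical error, as had 14.0% of all genes. Their FPKM values are listed nevertheless.

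Genes of a family can also share reads where their transcripts are alike. All 50-base stretches, the length of the reads, were therefore taken from the transcripts of each gene in GENCODE mouse release M21 and looked up in the transcripts of all other genes, on both strands. Elavl2, Elavl4, Rbfox1, Rbfox2 and Rbfox3 had no stretch in common with another gene. For Elavl3 and Nova2, 2 stretches each were shared with another of the 10 genes, and for the remaining genes none was. Stretches shared among the 10 genes were thus few in this annotation, and how reads were divided between members of a family was not tested. Nova2 shared 30.8% of its stretches, all of them with Gm26821, among others, a noncoding gene annotated on the opposite strand, which was chosen after its share was seen. The share was 3.13% for Elavl3, 3.00% for Nova1, 1.5% for Elavl1 and 0.203% for Celf4.

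Other RNA-binding proteins that are enriched in neurons were read as a list of 11 genes, of which Khdrbs2 stayed under 1 FPKM in both genotypes. Of the other 10, all were lower in A2 MNs, beside 65.9% of all genes (9 relative to the median gene, with Cpeb1 higher). At the 2-fold limit 7 were lower, beside 22.4% of all genes (6 relative to the median gene, beside 16.5%). Celf6, at 0.637 FPKM in A2 MNs, and Srrm4 entered through their Hb9 value alone. Their median log2 ratio was -1.55, beside -0.29 for all genes. Celf3, a relative of Celf4, had 72.0 FPKM in Hb9 MNs and 2.90 FPKM in A2 MNs, 24.8-fold lower. Srrm4 (nSR100), the regulator of neuronal microexons, had 16.9 and 0.983 FPKM, and its relative Srrm3 had 20.4 and 1.23 FPKM. These 3 genes had log2 ratios from -4.63 to -4.05, all below that of Rbfox3.

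Ptbp2, which takes over from Ptbp1 in young neurons and holds back late neuronal exons, had 72.4 FPKM in Hb9 MNs and 22.2 FPKM in A2 MNs. The Celf genes were uneven, with log2 ratios of -3.24 for Celf6, -1.10 for Celf2 and -0.83 for Celf5. Khdrbs3 (SLM2), which controls neurexin exons, had a log2 ratio of -1.40. Stau2, a carrier of dendritic transcripts, had 26.1 FPKM in Hb9 MNs and 21.1 FPKM in A2 MNs, and Cpeb1, which binds cytoplasmic polyadenylation elements, had 7.92 and 7.32 FPKM. The last 2 were the closest to equal of the list, and Cpeb1 had a log2 ratio of -0.11 as deposited and 0.18 relative to the median gene.

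Broadly expressed RNA-binding proteins were read for comparison, and 19 of 20 matched by symbol. As deposited, 10 were lower in A2 MNs, beside 65.9% of all genes, and 9 higher. Relative to the median gene 7 were lower and 12 higher. Their median log2 ratio was -0.06 as deposited and 0.23 relative to the median gene. Among them 3 were at least 2-fold lower, beside 22.4% of all genes, and 1 at least 2-fold higher, beside 6.83%. Relative to the median gene these counts were 2 and 1, beside 16.5% and 10.4%. The list summed to 2375 FPKM in Hb9 MNs and 2401 FPKM in A2 MNs. This sum was thus nearly the same in the 2 genotypes, although single genes of the list were lower or higher. The 10 genes, in contrast, summed to 517 and 149.8 FPKM, with Elavl4 the most abundant in Hb9 MNs.

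The most abundant of the broadly expressed genes were Hnrnpd (AUF1), which competes with Elavl1 for AU-rich stretches, the poly(C)-binding proteins Pcbp1 and Pcbp2, and Ptbp1. Hnrnpd was at 517 FPKM in Hb9 MNs and 673 FPKM in A2 MNs. Ptbp1, which represses neuronal exons in other cells, was at 186 and 256 FPKM, a log2 ratio of 0.46 (0.75 relative to the median gene). Pcbp1 and Pcbp2 had log2 ratios of 0.10 and 0.22. Ptbp1 had also 1 of the 2 highest ratios of the list, after Mbnl3 with 1.90 FPKM in Hb9 MNs and 5.55 FPKM in A2 MNs. The lowest ratios were those of Tia1, a stress granule protein (127 and 39.7 FPKM), and Zfp36l1, which promotes decay of AU-rich transcripts (72.4 and 23.6 FPKM).

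RNA-binding proteins of stem cells, progenitors and epithelia were mixed. Of 7, 3 were lower in A2 MNs, beside 65.9% of all genes, and 4 were higher, with a median log2 ratio of 0.51. The splicing regulators of epithelia were higher in A2 MNs. Esrp1 was at 5.16 FPKM in Hb9 MNs and 23.1 FPKM in A2 MNs, Esrp2 at 1.68 and 5.66 FPKM, and Rbm47 at 5.99 and 16.7 FPKM. Each of these 3 was at least 2-fold higher, beside 6.83% of all genes. In the list 2 were at least 2-fold lower, Msi1 and Lin28b, beside 22.4% of all genes. Relative to the median gene these counts were again 3 and 2, beside 10.4% and 16.5%. Lin28a, which blocks maturation of let-7 in pluripotent cells, was at 90.9 FPKM in Hb9 MNs and 129 FPKM in A2 MNs, whereas its relative Lin28b was at 18.8 and 7.37 FPKM. Msi1, a translational regulator of neural progenitors read from an entry it shares with Gm13832, was at 191 and 39.6 FPKM, and Msi2 was at 121 and 63.1 FPKM.

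**Figure D3:**
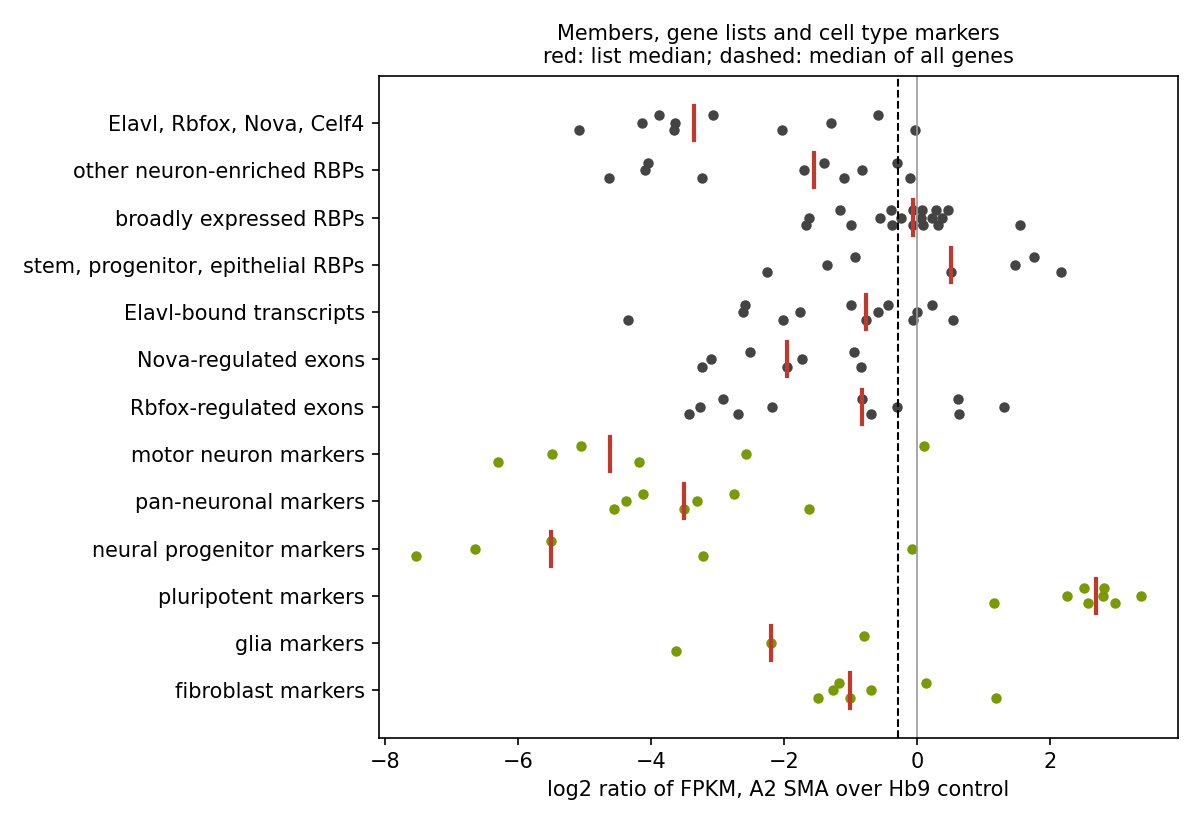
Log2 ratio of FPKM (A2 SMA over Hb9 control) of each gene past the filter (1 FPKM in Hb9 or A2 MNs, above 0 in both), by list (dark points) and by cell type markers (green points), where RBP stands for RNA-binding protein. Red bars are list medians and the dashed line is the median of all genes, -0.29; the median of the 10 genes at the top is -3.36 and that of broadly expressed RNA-binding proteins is -0.06 (0.23 relative to the median gene).

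Transcripts known to be bound by Elavl proteins were read as a list of 13. Of these, 10 were lower in A2 MNs, beside 65.9% of all genes, and 3 were higher (9 and 4 relative to the median gene). Bdnf, whose values are the same as printed, counts among the higher ones because no tolerance was used. In the list 5 were at least 2-fold lower, beside 22.4% of all genes, and none at least 2-fold higher, beside 6.83%. The median log2 ratio was -0.76, beside -0.29 for all genes. Gap43, a growth cone protein whose transcript is stabilised by Elavl4, was at 241 FPKM in Hb9 MNs and 11.9 FPKM in A2 MNs, 20.3-fold lower. Nrn1 (neuritin) was at 7.28 and 1.19 FPKM, and Marcks, an actin-linked substrate of protein kinase C, was at 189 and 31.4 FPKM. The acetylcholinesterase gene Ache, in an entry it shares with Ufsp1, had a log2 ratio of -2.02 and the tau gene Mapt of -1.76. Gap43, Nrn1, Marcks, Ache and Mapt were the 5 past the limit, and all but Marcks are best known from neurons.

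The other listed targets were closer to equal. Vegfa was at 228 FPKM in Hb9 MNs and 114 FPKM in A2 MNs, a difference just short of the 2-fold limit. The log2 ratio was -0.76 for the cell cycle inhibitor Cdkn1a and -0.59 for Fos. Myc had 10.1 and 9.73 FPKM, with a log2 ratio of -0.05 that was 0.24 relative to the median gene. The cyclin genes Ccna2 and Ccnb1 had log2 ratios of 0.22 and 0.54, and Bdnf was at 1.07 FPKM in both genotypes. Whether a lower level of an Elavl gene had a part in these values was not tested.

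Genes with exons that Nova proteins regulate were read at the level of the whole gene, since the table gives no value for single exons here. Of 9, Glra2 stayed under 1 FPKM and Kcnj6 is listed at 0 in both genotypes. The other 7 were all lower in A2 MNs, also relative to the median gene, beside 65.9% of all genes as deposited. At the 2-fold limit 5 were lower, beside 22.4% of all genes (5 relative to the median gene, beside 16.5%). The median log2 ratio was -1.96, beside -0.29 for all genes. Robo2, a receptor for Slit guidance cues, was at 28.5 FPKM in Hb9 MNs and 3.32 FPKM in A2 MNs. Dab1, an adaptor in reelin signaling, was at 22.7 and 5.83 FPKM, and the calcium channel gene Cacna1b at 13.3 and 2.33 FPKM. The log2 ratio was -1.73 for the netrin receptor Dcc. Agrn, which encodes the organiser of the neuromuscular junction agrin, was the most abundant of the list, at 198 and 110.1 FPKM, and Gphn (gephyrin) was at 12.3 and 6.38 FPKM. Both were lower by less than 2-fold.

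Genes with exons that Rbfox proteins regulate were less uniform. Of 11, 8 were lower, beside 65.9% of all genes, and 3 higher. At the 2-fold limit 5 were lower, beside 22.4% of all genes, and 1 was higher, beside 6.83%. The median log2 ratio was -0.83, beside -0.29 for all genes. The adhesion molecule gene Nrcam was at 36.7 FPKM in Hb9 MNs and 3.40 FPKM in A2 MNs, and Snap25, of the vesicle fusion machinery, was at 12.5 and 1.64 FPKM. The calcium channel gene Cacna1c had a log2 ratio of -3.27 and the scaffold gene Ank2 of -2.18. These 4 genes encode proteins of the neuronal membrane or synapse. Vamp1, Mef2a and Src had log2 ratios of -0.83, -0.70 and -0.30. Enah, a regulator of actin filaments, was at 116 and 179 FPKM, and Mef2d at 30.2 and 46.5 FPKM. Grin1, which encodes an NMDA receptor subunit, was at 5.12 FPKM in Hb9 MNs and 12.7 FPKM in A2 MNs, and was the gene at least 2-fold higher.

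Cell type markers differed alongside these genes. Their counts stand beside 22.4% of all genes at least 2-fold lower and 6.83% at least 2-fold higher (16.5% and 10.4% relative to the median gene). All 7 pan-neuronal markers matched by symbol (Tubb3 and Map2 were not matched) were at least 2-fold lower in A2 MNs, with a median log2 ratio of -3.51. Their summed level was 1163 FPKM in Hb9 MNs and 140.9 FPKM in A2 MNs, led by Nefm at 359 FPKM in Hb9 MNs and by Stmn2 at 78 FPKM in A2 MNs. None of the 7 was at 0. The log2 ratio was -4.56 for Nefm, -4.38 for Dcx, -4.13 for Nefl, -3.51 for Syt1, -3.31 for Syp, -2.76 for Ina and -1.63 for Stmn2. The log2 ratios of Elavl3, Elavl4, Rbfox3, Nova1, Nova2 and Celf4 lay within this range, that of Rbfox1 below it, and those of Elavl1, Elavl2 and Rbfox2 above it. The part of a different share of neurons in the values of the RNA-binding proteins was not tested.

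The MN identity of the sorted cells was read from 8 markers, of which 7 matched by symbol and 6 reached 1 FPKM. Their summed level was 216 FPKM in Hb9 MNs and 52.5 FPKM in A2 MNs. Mnx1, the gene of the Hb9 protein on whose promoter the sort was based, was at 41.2 FPKM in Hb9 MNs and 44.2 FPKM in A2 MNs and made up most of the latter sum. The other 5 were at least 2-fold lower, and Lhx3, Lhx4 and Chat were under 1 FPKM in A2 MNs. Isl1, the most abundant in Hb9 MNs, was at 108 FPKM there and 5.95 FPKM in A2 MNs. Lhx3 was at 27.6 and 0.348 FPKM, Lhx4 at 16.7 and 0.501 FPKM, Chat at 15.5 and 0.344 FPKM, and Isl2 at 6.85 and 1.15 FPKM. The defining markers of MNs other than Mnx1 were therefore each under 6 FPKM in the samples labelled as A2 SMA, and Slc5a7 was under 1 FPKM in both genotypes.

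Markers of pluripotent cells were at least 2-fold higher in A2 MNs in 8 of 8 cases, with a median log2 ratio of 2.69. They summed to 278 FPKM in Hb9 MNs and 1821 FPKM in A2 MNs, with Pou5f1 the most abundant in both, at 98.3 and 775 FPKM. The log2 ratio was 3.37 for Tdgf1, 2.81 for Esrrb, 2.80 for Zfp42, 2.58 for Utf1, 2.51 for Nanog, 2.25 for Klf4 and 1.16 for Dppa5a. All 8 were above 0 in Hb9 MNs, so transcripts of pluripotent cells were present in both genotypes. Their part in the lower levels of the neuronal RNA-binding proteins was not tested.

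Neural progenitor markers were lower as well. Of 6, Sox1 was not matched, and 4 of the other 5 were at least 2-fold lower, with sums of 739 and 35.0 FPKM. Fabp7 was the most abundant in Hb9 MNs, at 553 FPKM there and 5.52 FPKM in A2 MNs. Hes5 was at 65.3 and 0.349 FPKM, Nes at 66.3 and 7.07 FPKM and Olig2 at 32.1 and 0.704 FPKM. Pax6 led in A2 MNs, with 22.4 FPKM in Hb9 control and 21.4 FPKM in A2 MNs, a log2 ratio of -0.07 that was 0.22 relative to the median gene. The lower levels in A2 MNs thus covered markers of neural progenitors and of neurons.

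Markers of glia and fibroblasts had smaller sums than the neuronal ones in both genotypes. The 6 glial markers summed to 39.2 FPKM in Hb9 MNs and 14.3 FPKM in A2 MNs, with Mbp the most abundant (18 and 10.3 FPKM), and Gfap, Aqp4 and S100b under 1 FPKM in both. Aldh1l1 was at 13.9 and 3.03 FPKM and Sox10 at 6.48 and 0.525 FPKM. The 7 fibroblast markers summed to 66.9 and 35.2 FPKM. Among them 4 were at least 2-fold lower (1 relative to the median gene) and Thy1, which neurons also make, was at least 2-fold higher, at 0.970 and 2.20 FPKM. Col1a2 led in Hb9 MNs (20.1 and 8.93 FPKM) and Col1a1 in A2 MNs (18.9 and 9.41 FPKM), and Col3a1, Lum, Pdgfra and Dcn had log2 ratios of -1.27, -1.49, -0.69 and 0.14. Neither list was higher in sum in A2 MNs.

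For the most abundant member of each family in Hb9 MNs, the 3 genes nearest in the log2 FPKM of both genotypes were looked up over the 14926 genes, a likeness that rests on 2 values. Nearest to Elavl4 were Baiap2l1 (184 and 10.9 FPKM), Rgs4 (218 and 10.4 FPKM) and Gap43. The distances were 0.12, 0.18 and 0.29 on the log2 scale, and Gap43 is also among the listed targets of Elavl proteins. Nearest to Nova2 were Cspg5 (19.7 and 1.56 FPKM), Tbx20 (20.3 and 1.52 FPKM) and Thsd7b (19.3 and 1.75 FPKM). Nearest to Rbfox2 were Ptpn1, 3110001D03Rik and Aco1, all within 0.02 of it. For Nova2 the distances were 0.01, 0.05 and 0.16. Such a distance depends also on how many genes lie at these levels, so the members are not ranked by it.

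Sequence before the transcript start was read for the members that RefSeq promoter windows of build GRCm38.p6 cover, 8 of the 10, with 17 windows. E-boxes are motifs of proneural factors among other transcription factors, so a match is not particular to neurons. The forms searched were CAGCTG and CAGATG, which reads as CATCTG on the other strand. CAGCTG reads the same on both strands and neither motif contains the other. Within the 250 bases before the start, CAGCTG was found in 5 windows from 4 genes (Elavl3, Elavl4, Nova1 and Rbfox1), and in 13% of all 32851 windows and for 14.7% of all 27025 genes. CAGATG was found in 3 windows of 1 gene, Elavl4, and in 14.4% of all windows and for 16.3% of all genes. Genes with several windows have more chances of a match, and Elavl2 with 6 windows had neither motif. The 2 Elavl4 windows with CAGCTG overlap and hold the same copy. Elavl3, Elavl4 and Rbfox1 are printed because their windows hold CAGCTG where no exon is annotated in GENCODE M21, and because Elavl4 had the highest Hb9 level. The Elavl3 stretch is chr9:22052024-22052273 on the minus strand, in an intron of Gm49318. The Elavl4 stretch is chr4:110287528-110287777 on the minus strand, and the Rbfox1 stretch is chr16:7069585-7069834 on the plus strand, each in an intron of longer transcripts of the same gene. They run from 5′ to 3′ up to the base before the start, with both motifs in capitals.
Elavl3: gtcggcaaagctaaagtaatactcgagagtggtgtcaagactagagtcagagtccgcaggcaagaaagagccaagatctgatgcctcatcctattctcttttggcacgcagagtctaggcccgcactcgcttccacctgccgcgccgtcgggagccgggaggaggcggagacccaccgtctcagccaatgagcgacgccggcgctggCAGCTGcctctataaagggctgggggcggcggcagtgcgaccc
Elavl4: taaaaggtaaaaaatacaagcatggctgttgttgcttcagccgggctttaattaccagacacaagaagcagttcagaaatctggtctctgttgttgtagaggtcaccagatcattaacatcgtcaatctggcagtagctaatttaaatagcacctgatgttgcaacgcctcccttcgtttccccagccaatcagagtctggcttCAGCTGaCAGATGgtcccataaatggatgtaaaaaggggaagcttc
Rbfox1: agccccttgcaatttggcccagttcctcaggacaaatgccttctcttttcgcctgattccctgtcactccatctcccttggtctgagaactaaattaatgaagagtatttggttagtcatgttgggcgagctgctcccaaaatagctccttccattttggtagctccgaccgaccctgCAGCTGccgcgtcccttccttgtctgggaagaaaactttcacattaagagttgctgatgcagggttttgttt
Between CAGCTG and the start lie 37 bases in Elavl3, 40 in Elavl4 and 66 in Rbfox1, and in Elavl4 a CAGATG follows it after 1 base. A match describes the letters of a window and says nothing of binding there.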

How the data were processed

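RNA of sorted MNs was sequenced by the authors as single-end reads. By the submitters' processing notes and the methods, reads were checked with FastQC 0.10.1, trimmed with cutadapt, mapped with TopHat 2.04 to NCBI m37 with the Ensembl annotation, and quantified with Cufflinks and Cuffdiff, versions not given in the sources used here. The FPKM values deposited by the authors are 1 value per gene and genotype, over its 3 samples together. Columns with the authors' log2 fold change, test statistic, p, q and call of significance were not used.

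Symbols were split at commas, and the entry with the highest FPKM was taken. Log2 ratios had no pseudocount, and no significance test was run on them. All genes means entries that carry a symbol, reach 1 FPKM in Hb9 or A2 MNs and are above 0 in both. Starts, which count from 0 in the table, were raised by 1. The members and lists were chosen with earlier results of these data known. Named are all members, markers and lists of up to 13 measured genes; of the longer list, the 4 most abundant genes, the 2 highest and the 2 lowest ratios; Smn1; and the 3 nearest genes of 3 members. Some genes of the lists are counted but not reported here by name. The script for ratios and counts was tested on simulated data with known folds. Alternatives were pseudocounts, scalings, filters, fold limits, summed entries and status. Python 3.11.15, pandas 2.3.3, numpy 2.4.6 and matplotlib 3.10.9 were used. Protein identity within the families was not analysed here.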

Additional observations from a re-analysis of the deposited data

How the results depend on the processing

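The log2 ratios of the 10 genes and Smn1, the medians, and the counts of the 10 genes and of all genes were recomputed, list medians and Smn1 with 1 FPKM added and relative to the median gene only. Of these values, 117 of 136 stayed within 1.5-fold of the first value. With 1 FPKM added to both values, the log2 ratio was -2.19 for Rbfox1, -2.81 for Rbfox3 and -3.02 for Nova2, the median was -2.40 for the 10 genes, -3.59 for MN markers and -4.28 for neural progenitor markers, and 639 genes were at least 2-fold higher. With 0.1 FPKM added, Rbfox1 had -4.26. These are lower values in size because an added constant weighs most on low levels. Relative to the median gene, 1558 genes were at least 2-fold higher. A filter of 5 FPKM left 556 higher genes, and no filter gave 5051 lower and 1733 higher ones. At 4-fold, 1326 genes were lower and 268 higher, and at 1.5-fold, 5285 and 1900. Leaving out entries that share their locus with another entry, an alternative chosen after seeing the data, left 5 of the 10 genes (Elavl1, Elavl3, Elavl4, Rbfox1 and Nova1), of which 4 were at least 2-fold lower, and 1808 lower and 647 higher genes among 8411. The count of the 10 genes at least 2-fold lower was 7 of 9 with a filter of 5 FPKM, beside 20.0% of all genes. With status FAIL left out it was 7 of 7, beside 23.4%. At 4-fold it was 7 of 10, beside 8.88%, and at 1.5-fold, which Rbfox2 just missed, 8 of 10, beside 35.4%. Under pseudocounts, scalings, summed entries and no filter it was 8 of 10, beside 16.5% to 24.5% of all genes.

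No paired analysis was possible because the table gives 1 value per genotype, and for the same reason no sample was left out. The table does not list the reads behind a value, and no precision is given for levels under 1 FPKM, such as those of Rbfox1 and Rbfox3 in A2 SMA MNs.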
